A study of Homo sapiens with 6 samples.

Results

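The respiratory chain genes described here are those whose symbol in the platform annotation marks a nuclear-encoded component of complexes I to V: symbols that begin with NDUFA, NDUFB, NDUFC, NDUFS, NDUFV, UQCR, COX4 to COX8 or ATP5, together with CYC1 and SDHA to SDHD. The rule found 29 probe sets of 28 protein-coding genes among 16098 probe sets that carry a gene symbol on the array. A further 4 probe sets matched by symbol and were left out as a pseudogene or noncoding RNAs. The cells were HCT116, a human colorectal carcinoma line that some labels spell HTC116. Total RNA of cells stably transduced to overexpress miR-196b (3 arrays) was compared with that of empty vector control cells, transduced likewise (3 arrays). The cells of both groups were grown in McCoy's medium with serum and antibiotics, and the labels do not say whether either transduced line was a pool or a clone.

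Complexes I to IV of the inner mitochondrial membrane pass electrons from NADH and succinate to oxygen and, apart from complex II, pump protons; complex V, the ATP synthase, uses the resulting gradient to make ATP. Complexes I, III, IV and V combine subunits encoded by mitochondrial DNA with nuclear-encoded ones. Several subunits of complex IV, cytochrome c oxidase, exist as a general isoform and as an isoform restricted to muscle, lung or testis. Colorectal carcinoma lines such as HCT116 use both glycolysis and respiration.

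The members with a symbol here did not cover all complexes. They comprised 2 assembly factors of complex I, 6 genes of complex III, 17 genes (18 probe sets) of complex IV and 3 genes of complex V. No structural NDUF subunit and no SDH gene was among the named probe sets, so complex II and the body of complex I were not analysed here. A list of 15 genes of the mitochondrial DNA likewise had 0 named probe sets. No protein sequence was used here.

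MicroRNA-196b is one of a family that shares a seed, the stretch that pairs with target messages. Its mature sequence and that of its relative miR-196a are shown because the groups were defined by the one and the array signal of the other's precursor differed most. Capitals mark the seed, bases 2 to 8, and the sequences are from RefSeq on GRCh38.p14 (chr7:27169528-27169549, minus strand, and chr12:53991762-53991783, plus strand).
hsa-miR-196b-5p: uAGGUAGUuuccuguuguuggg
hsa-miR-196a-5p: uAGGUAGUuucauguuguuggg
They differ at 1 base, C12A, counted from the 5′ end of miR-196b-5p, and share the seed.

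The deposited values are log2 signals, 1 per probe set and array, and the arrays had medians of 4.34 to 4.37. The MIR196B probe set, which reads the precursor transcript, had a log2 change of 0.08 (95% interval -0.16 to 0.31, limma adjusted p = 0.819). That of MIR196A2 had 7.55 (adjusted p = 4.53e-07). GALNT5 and HOXB7, which the series title names, had log2 changes of -1.09 (adjusted p = 0.0233) and -0.64 (0.0974); the GALNT5 change stayed between -1.16 and -1.01 with any array left out, but its adjusted p was then 0.0519 to 0.179, and 0.124 with a replicate block and 0.0746 with all probe sets tested. A rise was thus measured at MIR196A2 and not at MIR196B; every direction given here therefore rests on the labels, as miR-196b minus control. Of the colon epithelial markers, EPCAM had means of 11.02 and 10.90, and VIL1, the only one higher, lay among the dimmest 40% of probe sets. Lower means in the labelled group were found at 6 of the 7 epithelial probe sets (0 past the adjusted threshold). At an unadjusted limma p below 0.05, 2 of the 7 passed (28.6%, beside 9.87% of all named probe sets). These were the brighter KRT18 probe set (-0.22) and CDX2 (-0.26), both lower and without overlap between the groups. The mean level of all 7 was 7.40 to 7.45 in control and 7.21 to 7.39 in labelled arrays. All measured blood, fibroblast and endothelial markers (CD14, DCN, LUM, VWF, PECAM1) lay among the dimmest 40%, as did the muscle gene MB but not DES. Whether the shift of the epithelial markers bears on the values below was not tested.

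No transcript of the respiratory chain was called different between the groups, and few probe sets of the whole array were. Of the 29 members, 0 passed at an adjusted p below 0.05, where 0.0559% of all named probe sets did (9 of 16098, limma with Benjamini-Hochberg adjustment). With so small a share over the array, a count of 0 among 29 says little about the members. Member adjusted p-values ran from 0.426 to 0.994. At an unadjusted p below 0.05, 2 members passed (6.90%, against 9.87% of all named probe sets), 1 higher (COX7B2, against 5.73% of all) and 1 lower (COX4I2, against 4.14%). Both are tissue-restricted isoforms whose probe sets were among the dimmest 40%. Members were spread on both sides of 0, 13 above and 16 below; their median log2 change was -0.03, beside 0.0069 over all named probe sets. This median was -0.01 without replicate 3 of the labelled arrays, and -0.05 without control replicate 1 or without replicate 2 of the labelled arrays. In bulk RNA, less transcript per cell and fewer cells with the transcript cannot be told apart.

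The intervals bound how large a difference these arrays could have missed. For all 22 members above the dimmest 40%, the 95% interval lay within a 1.5-fold change in either direction, as it did for 94.1% of all named probe sets above that limit. Over all 29 members this held for 93.1%, beside 88.1% of all named probe sets. The 2 members whose interval crossed 1.5-fold were COX6B2 (-0.68 to 0.29) and the dimmer COX6A1 probe set (-0.14 to 0.66). Members also varied little within a group: their median within-group SD was 0.0878 on the log2 scale, beside 0.128 over all named probe sets. Among brighter probe sets alone these medians were 0.0807 for members and 0.0996 for all.

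**Figure D1:**
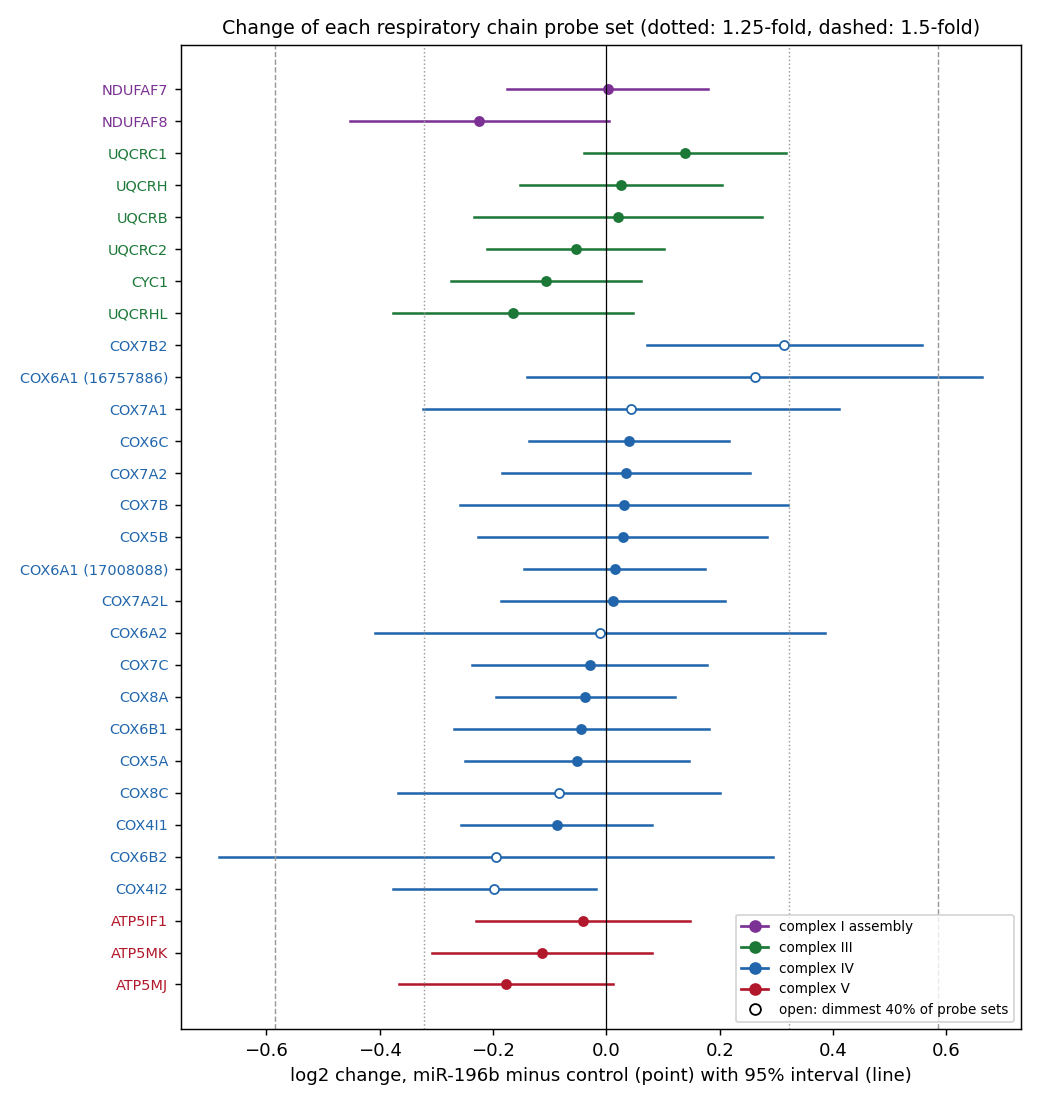
Log2 change (miR-196b minus control, n = 3 arrays each) of the 29 respiratory chain probe sets, with 95% intervals from the limma fit; colours mark the complex, and open circles probe sets among the dimmest 40%. Filled circles, the 22 brighter members, have intervals inside the dashed 1.5-fold lines, and the 2 intervals that cross those lines belong to COX6B2 and to 1 of the COX6A1 probe sets.

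Complex III, which takes electrons from coenzyme Q to cytochrome c, had 3 members on each side of 0, and its median log2 change was -0.02. UQCRC1, a core protein of the matrix side, read 9.65, 9.69 and 9.64 in control and 9.90, 9.76 and 9.74 in labelled arrays. All 3 labelled arrays lay above all 3 control arrays, by 0.0506 at the nearest point, and the means were 9.66 ± 0.0234 and 9.80 ± 0.0883 (SD, n = 3 each), and the log2 change was 0.14 with an SE of 0.08 (limma adjusted p = 0.586). Its partner core protein UQCRC2 read 11.51, 11.54 and 11.52 in control and 11.45, 11.50 and 11.46 in labelled arrays. It went the other way, with every labelled array below every control array, by a log2 change of -0.05 (SE 0.07, limma adjusted p = 0.813). The difference between the core proteins was not tested.

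CYC1, cytochrome c1, which hands electrons on to cytochrome c, read 10.29, 10.24 and 10.26 in control and 10.15, 10.22 and 10.10 in labelled arrays. Its groups did not overlap, with a log2 change of -0.11 (95% interval -0.27 to 0.06, limma adjusted p = 0.646). UQCRB, a small subunit near the quinone site, read 5.83, 5.99 and 5.78 in control and 5.70, 6.02 and 5.93 in labelled arrays, and its groups overlapped (0.02, adjusted p = 0.965). UQCRH, the acidic hinge protein beside cytochrome c1, read 6.41, 6.52 and 6.45 in control and 6.54, 6.51 and 6.41 in labelled arrays.

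UQCRH and UQCRHL, an intronless near-copy of it, had log2 changes of opposite sign; whether their probe sets share signal was not examined, and both values are uncertain for that reason. The UQCRH log2 change was 0.03 (95% interval -0.15 to 0.20) and its groups overlapped. UQCRHL read 9.24, 9.45 and 9.21 in control and 9.11, 9.21 and 9.09 in labelled arrays, a log2 change of -0.16 (-0.38 to 0.05). Control replicate 2 stood above the other control arrays, and without it the UQCRHL log2 change was -0.09; the nearest arrays of the groups were 0.0020 apart.

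No general subunit of complex IV passed the adjusted threshold or an unadjusted p of 0.05. Of all named probe sets, 0.0559% and 9.87% did (limma). Over the 12 probe sets of complex IV that are not tissue-restricted isoforms, 7 were higher and 5 lower, and the median log2 change was 0.01. Groups did not overlap at 1 of them (8.33%, beside 17.2% of all named probe sets). That was COX4I1, the largest nuclear-encoded subunit, which binds early in assembly. It read 11.13, 11.21 and 11.13 in control and 11.02, 11.13 and 11.06 in labelled arrays, a log2 change of -0.09 (SE 0.07, limma adjusted p = 0.710). The nearest arrays of the groups were 0.0033 apart. COX5A, its partner in the first assembly module, read 10.70, 10.84 and 10.84 in control and 10.84, 10.74 and 10.65 in labelled arrays, and its groups overlapped (-0.05, adjusted p = 0.864).

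COX8A, a small membrane-spanning subunit, read 12.13, 12.06 and 12.10 in control and 12.08, 12.08 and 12.03 in labelled arrays, with a log2 change of -0.04 (95% interval -0.20 to 0.12) and overlapping groups. COX5B, the zinc-binding subunit on the matrix side, had a log2 change of 0.03. Its control arrays read 7.18, 7.05 and 7.23 and its labelled arrays 7.39, 7.11 and 7.05, with labelled replicate 1 above the rest. COX6B1, which faces the intermembrane space near cytochrome c, read 8.31, 8.48 and 8.60 in control and 8.36, 8.499 and 8.40 in labelled arrays (-0.04).

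The remaining general members of complex IV had overlapping groups and log2 changes between -0.03 and 0.04. These were the membrane subunits COX6C (0.04), COX7A2 (0.03), COX7B (0.03) and COX7C (-0.03), and COX7A2L (0.01), which joins complexes III and IV into supercomplexes. COX6A1 was read by a pair of probe sets that disagreed in size. The brighter one read 12.49, 12.55 and 12.52 in control and 12.51, 12.58 and 12.51 in labelled arrays (0.01, 95% interval -0.15 to 0.17). The dimmer one read 3.90, 3.93 and 4.23 in control and 3.95, 4.30 and 4.59 in labelled arrays (0.26, -0.14 to 0.66), and its log2 change was 0.11 without labelled replicate 3 and 0.43 without labelled replicate 1. RefSeq lists a pseudogene of COX6A1, and which probe set reads which sequence was not examined.

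The 6 named tissue-restricted isoforms all lay among the dimmest 40% of probe sets, where a value may hold little signal of its own transcript. COX7B2, the testis form of COX7B, read 2.54, 2.43 and 2.49 in control and 2.999, 2.65 and 2.76 in labelled arrays. Its groups did not overlap (2.49 ± 0.056 and 2.80 ± 0.178, SD, n = 3 each), and the log2 change of 0.31 (95% interval 0.07 to 0.56) was the highest of any member (limma unadjusted p = 0.0181, adjusted p = 0.426). COX4I2, the form of COX4 known from lung and from response to low oxygen, read 4.66, 4.69 and 4.82 in control and 4.53, 4.56 and 4.49 in labelled arrays. All labelled arrays were lower (4.53 ± 0.0341 against 4.72 ± 0.0849, SD, n = 3 each), by a log2 change of -0.20 (-0.38 to -0.02; limma unadjusted p = 0.0346, adjusted p = 0.479).

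The other isoforms had groups that overlapped. COX6A2, the heart and muscle form of COX6A, read 5.03, 4.56 and 4.56 in control and 4.43, 4.89 and 4.80 in labelled arrays (-0.01). COX7A1, the muscle form paired with COX7A2, read 4.54, 4.01 and 3.98 in control and 4.205, 4.33 and 4.13 in labelled arrays (0.04). For both, control replicate 1 stood above the other control arrays, and both changed sign with single arrays left out. The testis forms COX6B2 (-0.19) and COX8C (-0.08) spread widely: COX6B2 ran from 4.51 to 5.42 among the control arrays alone. Of the muscle markers, MB, among the dimmest 40%, had a log2 change of 0.23 (unadjusted p = 0.0160 and adjusted p = 0.417 in limma). The brighter DES had 0.05 and -0.03 at its probe sets (limma adjusted p = 0.899 and 0.978). What part these markers have in the values of the muscle forms was not tested. NDUFA4L2, the seventh isoform listed, had no named probe set.

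**Figure D2:**
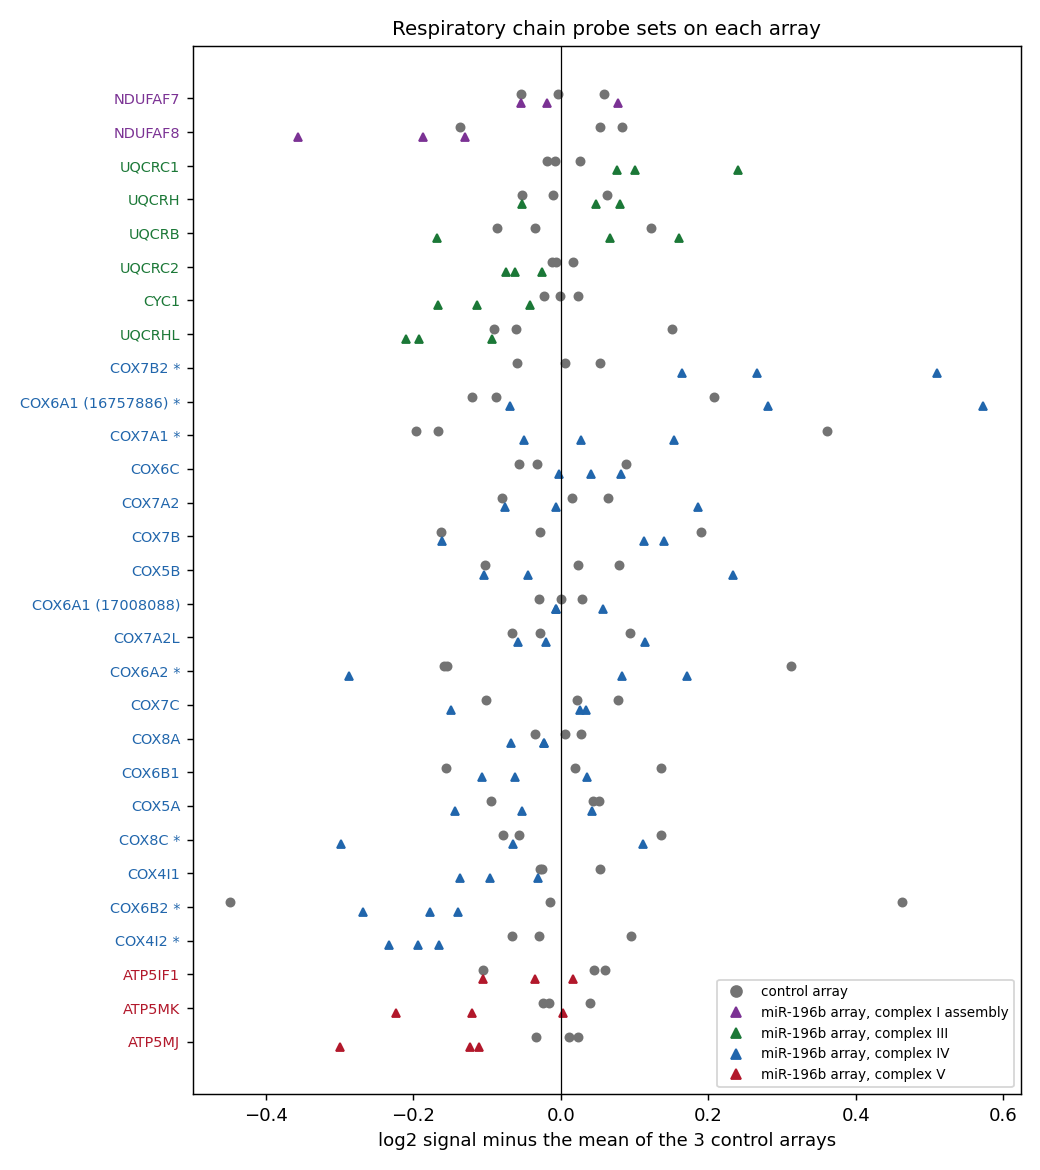
Log2 signal on each of the 6 arrays minus the mean of the 3 control arrays, for each of the 29 respiratory chain probe sets; grey circles are control arrays, coloured triangles arrays labelled miR-196b, and an asterisk marks the dimmest 40% of probe sets. Triangles and circles are interleaved for 21 probe sets, and the 8 with separate groups include UQCRC1 and COX7B2 on the higher side and ATP5MJ and COX4I2 on the lower.

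All 3 named genes of complex V had log2 changes below 0, with a median of -0.11. ATP5MJ, a small membrane subunit of the ATP synthase, read 6.93, 6.98 and 6.97 in control and 6.84, 6.85 and 6.66 in labelled arrays. Every labelled array was below every control array, with a log2 change of -0.18 (SE 0.08, 95% interval -0.37 to 0.01, limma adjusted p = 0.513). ATP5MK, another small membrane subunit, which helps hold synthase dimers together, read 7.94, 7.93 and 7.996 in control and 7.96, 7.83 and 7.73 in labelled arrays (-0.11, adjusted p = 0.672). ATP5IF1, the inhibitor that stops the synthase from running backwards, read 7.01, 7.18 and 7.16 in control and 7.08, 7.13 and 7.01 in labelled arrays (-0.04, adjusted p = 0.887). Labelled replicate 3 was the lowest array for all 3, and without it the log2 changes were -0.12 for ATP5MJ, -0.06 for ATP5MK and -0.0088 for ATP5IF1.

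Complex I was represented by 2 assembly factors. NDUFAF8, which stabilises the assembly factor NDUFAF5, read 9.68, 9.87 and 9.90 in control and 9.69, 9.63 and 9.46 in labelled arrays. Control replicate 1 lay among the labelled arrays, and the log2 change of -0.22 (SE 0.10, 95% interval -0.45 to 0.0038) was the lowest of any member (limma unadjusted p = 0.0530, adjusted p = 0.506). NDUFAF7, which methylates a core subunit, read 7.72, 7.66 and 7.61 in control and 7.61, 7.74 and 7.65 in labelled arrays. Its log2 change was 0.0021 (-0.18 to 0.18). The difference between the factors was not tested.

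Groups that did not overlap were more frequent than differences that passed a test. They occurred at 8 of 29 members (27.6%), beside 17.2% of all named probe sets: 2 higher (UQCRC1 and COX7B2, where 10.0% of all were higher) and 6 lower (CYC1, UQCRC2, UQCRHL, COX4I1, COX4I2 and ATP5MJ, where 7.18% of all were lower). Among probe sets above the dimmest 40%, 6 of 22 members (27.3%) and 20.9% of all had such groups. In complex III, whose members were all above the dimmest 40%, 4 of 6 had them. The gaps were narrow, from 0.0020 (UQCRHL) to 0.111 (COX7B2) on the log2 scale. With an array left out, fewer arrays make separation more frequent. The members' share was then highest without control replicate 1, at 13 members (44.8%), beside 27.1% of all named probe sets. Without labelled replicate 2 it was 27.6%, beside 28.3% of all, and without labelled replicate 3 it was 27.6%, beside 27.2%. For any member, the smallest two-sided p of an exact permutation test is 0.1 with 3 arrays a group.

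Single arrays shifted the members by amounts like the differences between the groups. Relative to the control mean, the median member stood at -0.05 in control replicate 1, 0.02 in control replicate 2 and 0.0058 in control replicate 3. In the labelled arrays it stood at -0.03, -0.0021 and -0.06 in replicates 1 to 3. Over all named probe sets the medians stayed between -0.01 and 0.01. Labelled replicate 3 was the lowest array for 11 of 29 members (37.9%, beside 18.7% of all named probe sets) and control replicate 1 for 9 (31.0%, beside 21.8%).

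Genes around the chain were followed through 4 further lists with measured members. Named probe sets covered 45 of 53 listed assembly factors and 11 of 21 genes of electron carriers and coenzyme Q synthesis. They covered 14 of 26 genes of the citric acid cycle and pyruvate entry and 15 of 28 regulators. The other listed genes were not measured here, so the counts below are of parts of the lists. No list had a member past the adjusted threshold, which 0.0559% of all named probe sets passed (limma). Assembly factors of all complexes had 33 of 45 genes lower (73.3%, beside 48.0% of all named probe sets), with a median log2 change of -0.05. The median was -0.03 without control replicate 3 and also without labelled replicate 3. Of the 45 genes, 4 passed at an unadjusted p (8.89%, beside 9.87% of all named probe sets), 2 higher and 2 lower. Separate groups occurred at 13 of the 45 (28.9%, beside 17.2% of all named probe sets), 3 higher and 10 lower. CMC1, which acts on copper handling in complex IV assembly, read 5.61, 5.82 and 5.85 in control and 6.08, 6.15 and 6.07 in labelled arrays. Its groups did not overlap, with a log2 change of 0.34 (limma adjusted p = 0.359).

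SDHAF3, which protects the iron-sulfur subunit of complex II during assembly, read 6.11, 6.30 and 6.45 in control and 5.99, 5.93 and 5.88 in labelled arrays. Here every labelled array was lower, by a log2 change of -0.35 (limma adjusted p = 0.383). BCS1L, which inserts the Rieske iron-sulfur protein into complex III, read 8.15, 8.15 and 8.13 in control and 7.94, 8.01 and 7.95 in labelled arrays (-0.18, adjusted p = 0.474), also without overlap. COA5, another factor of complex IV assembly, had 0.25 (adjusted p = 0.417), with every labelled array above every control array.

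The citric acid cycle and pyruvate entry list, which feeds the chain with NADH, had 6 of 14 genes higher and 8 lower and a median log2 change of -0.0092. At an unadjusted limma p below 0.05, 2 of the 14 passed (14.3%, beside 9.87% of all named probe sets). Separate groups occurred at 5 of the 14 (35.7%, beside 17.2% of all named probe sets), 2 higher and 3 lower. IDH3B, a subunit of the NAD-dependent isocitrate dehydrogenase, read 9.39, 9.32 and 9.32 in control and 9.18, 9.09 and 9.17 in labelled arrays, with no overlap (-0.20, limma adjusted p = 0.452). PC, pyruvate carboxylase, had 0.19 (adjusted p = 0.490), MPC2, a subunit of the mitochondrial pyruvate carrier, -0.19 (0.532), and CS, citrate synthase, -0.11 (0.654). PC, MPC2 and CS also had groups that did not overlap. Electron carriers and coenzyme Q synthesis genes had 6 of 11 higher and a median of 0.00076. Of these 11, 0 passed at an unadjusted p, beside 9.87% of all named probe sets. Separate groups occurred at 1 of the 11, COQ9 (9.09%, beside 17.2% of all named probe sets). The named ones were DHODH, which links pyrimidine synthesis to the chain (-0.14), COQ9 (-0.09), GPD2, the mitochondrial glycerol phosphate dehydrogenase (0.09), and COQ10B (0.07).

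Regulators of respiratory genes had 12 of 15 lower (80%, beside 48.0% of all named probe sets) and a median log2 change of -0.06. At an unadjusted limma p below 0.05, 2 of the 15 passed (13.3%, beside 9.87% of all). ESRRG, a nuclear receptor, read 2.997, 3.27 and 3.17 in control and 3.41, 3.60 and 3.51 in labelled arrays, among the dimmest 40% of probe sets (0.36, limma adjusted p = 0.360). MTERF4, a factor of mitochondrial ribosome assembly, read 5.81, 5.89 and 5.86 in control and 5.69, 5.70 and 5.65 in labelled arrays (-0.18, adjusted p = 0.482). Both had groups that did not overlap, in opposite directions. Separate groups occurred at 5 of the 15 regulators (33.3%, beside 17.2% of all named probe sets). Of these, 1 was higher (ESRRG) and 4 were lower, MTERF4 and MYC among them. MTERF3, a negative regulator of mitochondrial transcription, had -0.23 (adjusted p = 0.590) and MYC -0.15 (0.578).

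**Figure D3:**
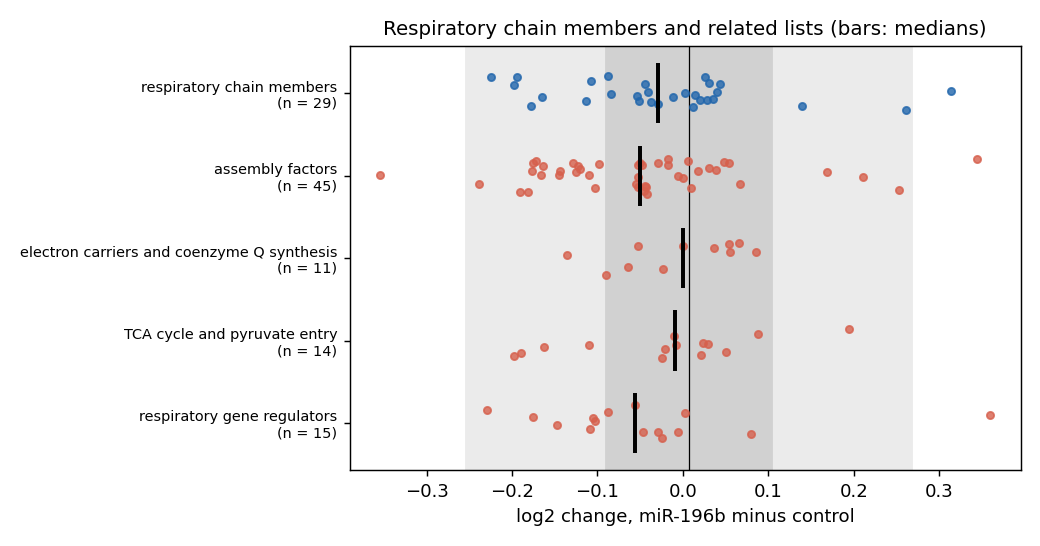
Log2 change (miR-196b minus control) of each of the 29 respiratory chain probe sets and of the members of 4 related lists, 1 point per probe set, with thick bars at the medians; the thin line is the median of all 16098 named probe sets, and the dark and light bands span their 25th to 75th and 5th to 95th percentiles (-0.09 to 0.10 and -0.25 to 0.27). Medians of all 5 sets lie inside the dark band, which spans single probe sets and is a wide range for a median. COX7B2 at 0.31 is the only respiratory chain point above the light band.

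Promoters of respiratory genes are known for sites of NRF1, of ETS factors such as GABP and of YY1. In RefSeq windows on GRCh38.p14 from 250 bases before to 50 after each start, 22 of the 28 member genes had a window; COX4I2, COX6C, COX7A1, CYC1, UQCRB and UQCRHL had none. Letters were searched on both strands: GCGCA and GCGC with 1 base of any kind between them for NRF1, CCGGAAGT for ETS and AAGATGGC for YY1. The NRF1 letters occurred in 3 of the 22 genes (13.6%, beside 6.98% of all 27305 genes with a window), the ETS letters in 4 (18.2%, beside 4.95%) and the YY1 letters in 2 (9.09%, beside 3.52%). All genes with a window were counted whatever their type, while the members are all protein-coding, so the shares may not be of like genes. NRF1 letters were in ATP5MJ, COX8C and UQCRC1, ETS letters in ATP5MK, COX5B, COX8A and UQCRH, and YY1 letters in NDUFAF8 and UQCRC1. No matches overlapped. The windows with more than 1 match, COX5B (a pair of ETS matches) and UQCRC1 (NRF1 on the minus strand of the gene, then YY1), are printed 5′ to 3′ on the strand of the gene with the matches in capitals.
COX5B (chr2:97645812-97646111, plus strand): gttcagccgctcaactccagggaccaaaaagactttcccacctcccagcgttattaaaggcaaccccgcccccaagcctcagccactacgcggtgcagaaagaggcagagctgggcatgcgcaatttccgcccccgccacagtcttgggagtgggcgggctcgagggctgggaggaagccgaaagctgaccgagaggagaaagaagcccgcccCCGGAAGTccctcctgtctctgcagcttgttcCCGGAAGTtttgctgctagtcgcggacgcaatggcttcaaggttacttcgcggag
UQCRC1 (chr3:48609597-48609896, minus strand): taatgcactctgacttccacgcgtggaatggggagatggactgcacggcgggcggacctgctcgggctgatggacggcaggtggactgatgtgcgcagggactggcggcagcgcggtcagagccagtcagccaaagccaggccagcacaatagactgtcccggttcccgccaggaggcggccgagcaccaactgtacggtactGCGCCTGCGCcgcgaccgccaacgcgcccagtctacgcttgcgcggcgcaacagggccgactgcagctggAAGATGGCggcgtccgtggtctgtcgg
The log2 changes of the 8 genes with any of these letters ran from -0.22 (NDUFAF8) to 0.14 (UQCRC1). These matches describe the letters in the windows, not binding.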

How the data were processed

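Values were the deposited series table, log2 signals that the authors made per probe set; per the submitters' processing notes, the tools were RMA and Partek 6.6, with neither order nor options given, and the genome build is not given in the sources used here. RMA sets arrays to a common distribution, so a shift of the whole transcriptome would not show. Of 53617 probe sets, 16098 had 1 gene symbol (14884 genes) in the platform annotation, 0 several, and 37519 none here. These 16098 were fitted without filter by limma 3.58.1 in R 4.3.3 (lmFit, eBayes, 4 residual and 3.23 prior degrees of freedom), miR-196b minus control, with Benjamini-Hochberg adjustment at 0.05. Precision is limited by having 3 arrays a group. The series' design text speaks of biological replicates but not of separate transductions; p-values then measure only the spread among these samples, which may be technical. The fit was run on simulated data with independent normal noise, to check that mean estimated changes came near the planted ones. That check does not bear on array effects. Named genes were the 3 smallest p in each direction per complex, all of complex III, all isoforms and their partners, the smallest p in each list (up to 4) and the checks of the groups; the remaining members are also given, so that none is left out; members and lists were chosen with earlier results of these data known. Alternatives changed the filter, variance prior, normalization, features tested, replicate block, members and arrays. Batches were not tested, since dates were not used.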

Additional observations from a re-analysis of the deposited data

How the results depend on the processing

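The count of 0 members at an adjusted p below 0.05 held under every alternative run: without the dimmest 40% of probe sets, with a trended, robust variance prior, with median centring, with a repeated quantile normalization, with all probe sets tested, with a replicate block, with the brightest probe set per gene and with any array left out (smallest member adjusted p = 0.232, NDUFAF8 with the trended prior). Over all probe sets tested, only 1 (replicate block) to 91 (trended prior) passed in these settings. A 0 among the members was therefore likely in each, and its persistence says little about them. The unadjusted counts moved. Members higher numbered 0 without the dimmest 40%, 2 with the trended prior, 2 with the replicate block and 0 to 2 with an array left out. Members lower numbered 2, 3 and 0 under the same settings, 2 with repeated quantile normalization, 0 with all probe sets and 0 to 3 with an array left out. Both were 0 without the tissue-restricted isoforms, an alternative added after the data were seen. Of all probe sets tested, 14.4% passed in either direction without the dimmest 40%, 11.7% with the trended prior and 9.44% with the replicate block. This share was 10.2% with repeated quantile normalization, 7.4% with all probe sets and 8.05% to 9.68% with an array left out. Separate groups numbered 8 to 13 (27.6% to 44.8% of members) with an array left out, which can add to them but not take from them. Of all named probe sets, 26.6% to 28.4% were then separate. The replicate block lowered the calls over all named probe sets from 9 to 1, and same-numbered arrays did not deviate together (r = 0.0085 to 0.0369). The median member change stayed between -0.05 and -0.01; with an array left out, that of complex III ran from -0.059 to 0.0058, that of complex IV from -0.032 to 0.012, that of complex V from -0.172 to -0.059, that of the assembly factors from -0.068 to -0.026, that of the electron carriers from -0.032 to 0.040 and that of the citric acid cycle list from -0.031 to 0.017. Of the 29 members, 15 kept their sign under all settings. NDUFAF7 turned to -0.0056 with median centring and -0.021 with repeated quantile normalization. With an array left out, log2 changes crossed 0 for NDUFAF7 (-0.036 to 0.031), UQCRH (-0.0020 to 0.064), UQCRB (-0.050 to 0.114), COX5B (-0.074 to 0.095), COX6A1 at its brighter probe set (-0.0070 to 0.029), COX6A2 (-0.102 to 0.145), COX6B1 (-0.122 to 0.023), COX6B2 (-0.419 to 0.036), COX7A1 (-0.054 to 0.224), COX7A2 (-0.041 to 0.090), COX7A2L (-0.039 to 0.059), COX7B (-0.050 to 0.127), COX7C (-0.08 to 0.030), COX8C (-0.181 to 0.023), COQ10B (-0.0044 to 0.102) and MIR196B (-0.00073 to 0.14). The cause was not tested. The GALNT5 call was lost with any array left out, with all probe sets and with the replicate block, and HOXB7 gained a call without the dimmest 40% and with the trended prior. Dim probe sets limit what can be said of the isoforms.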

Other observations

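The 4 probe sets that matched by symbol and are no protein-coding members had overlapping groups. The pseudogene UQCRBP1 had a log2 change of -0.14 (95% interval -0.48 to 0.20), the RNA NDUFB2-AS1 -0.07 (-0.31 to 0.18), and NDUFA6-DT, which runs divergently from NDUFA6, -0.01 and -0.03 at its probe sets.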
